A study of Homo sapiens with 4 samples.

Results

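The suppressor of cytokine signalling (SOCS) family was examined for N6-methyladenosine (m6A), a methyl mark on adenosines within messenger RNA, as measured by precipitation of modified RNA fragments with an m6A antibody and sequencing (MeRIP-seq). The family has 8 members, SOCS1 to SOCS7 and CISH, and each was represented by a window of the hg19 genome around the gene. Every listed m6A interval that overlapped a window on the strand of the gene was taken as a member interval, whatever its value. The windows were not tight: the member interval closest to a window border, the short SOCS5 interval described below, lay 349 nt inside it, and the closest interval outside any window on its strand lay 51893 nt away. This gave 6 of the 13691 intervals listed with METTL3 knockdown and 6 of the 11038 listed in CSE, where CSE stands for exposure to cigarette smoke extract.

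The cells were 16-HBE, an established human bronchial epithelial line grown in medium with serum. In one condition METTL3, the catalytic subunit of the m6A writer complex, was knocked down with siRNA, and exposure was to 5% CSE and lasted 24 h. In the other the genotype is labelled WT and the exposure was the same, so that both conditions carry the smoke extract and no unexposed condition was compared. A control siRNA is not named for the CSE cells, and METTL3 reduction therefore cannot be told apart from siRNA transfection. Each condition had an immunoprecipitated and an input library, 4 libraries in all. The design text of the series gives replicates, but 1 interval list per condition was analysed, so no value below has a replicate error, and the conditions were compared without a test or p-value. The lists hold no expression values, and neither the METTL3 transcript nor the level of any SOCS transcript could be checked.

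SOCS proteins are feedback inhibitors of cytokine and growth factor receptors. Each holds an SH2 domain, which binds phosphorylated tyrosines on receptors or kinases, and a C-terminal SOCS box, which recruits a ubiquitin ligase through the elongin proteins. SOCS1, SOCS3, SOCS2 and CISH are classically induced by cytokines through STAT transcription factors, whereas SOCS4 to SOCS7 are better known for receptor tyrosine kinase and insulin signalling. METTL3 and METTL14 place m6A mainly at a consensus whose most common core is GGACT in DNA letters, often near stop codons and in long last exons.

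Of the 8 genes, 6 held an interval with knockdown and 5 held one in CSE. SOCS2, SOCS4, SOCS5, SOCS6 and CISH were listed in both conditions, each with 1 wide interval that overlapped its counterpart. SOCS3 was listed with knockdown and not in CSE. SOCS5 had an additional short interval that was listed in CSE and not with knockdown. SOCS1 and SOCS7 had no interval in either list. The member intervals covered 12868 nt with knockdown and 10244 nt in CSE, a difference to which the 2407 nt interval of SOCS3 contributed most.

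Knockdown-only intervals thus made up 1 of 6, or 16.7% (exact Clopper-Pearson 95% interval 0.421 to 64.1), of the SOCS intervals in the knockdown list. Among all intervals of that list the share was 35.5%, and among those over 1500 and up to 3000 nt it was 19.0%. CSE-only intervals likewise made up 1 of 6 SOCS intervals in the CSE list, where the share was 19.9% of all intervals and 17.7% of those up to 300 nt. No wide SOCS interval was CSE-only, beside 20.2% of the CSE intervals over 1500 and up to 3000 nt. With 6 intervals per list, the counting interval includes each list-wide share. It covers counting error only.

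**Figure D1:**
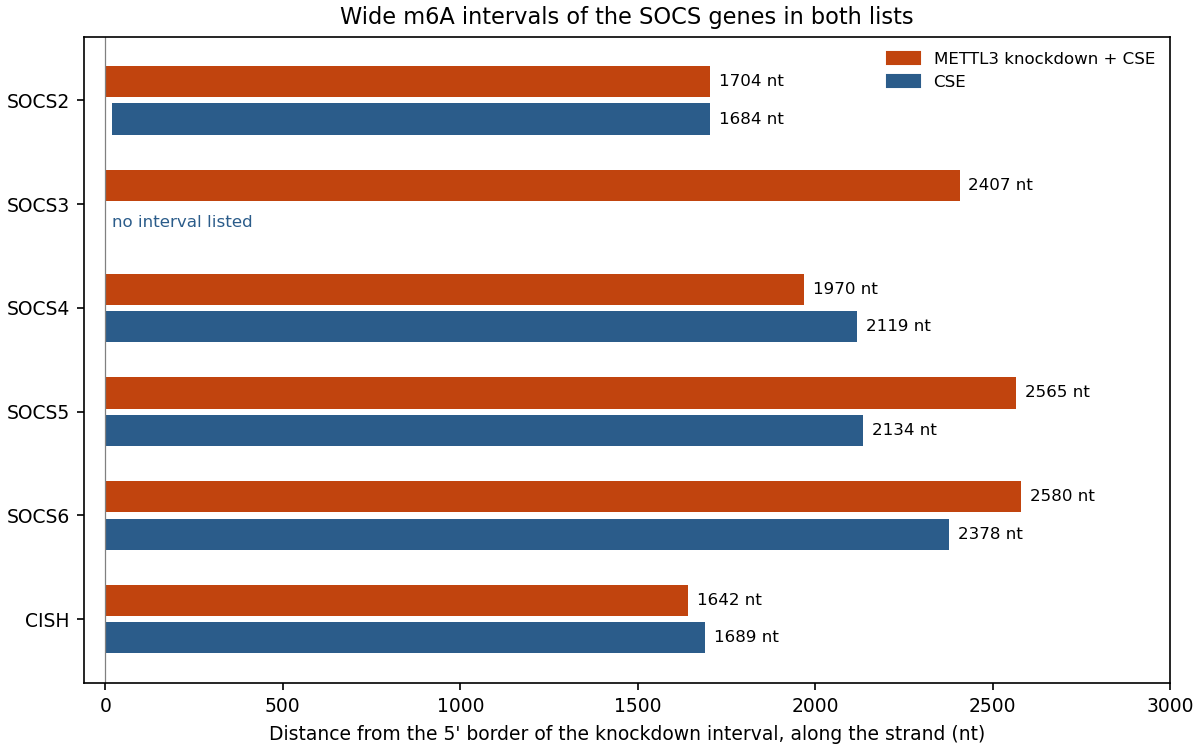
Wide m6A intervals of the 6 SOCS genes that had one, drawn along the strand of the gene in nt from the 5' border of the knockdown interval. Orange bars are the METTL3 knockdown list and blue bars the CSE list, 1 list each. SOCS3 has a bar of 2407 nt with knockdown and none in CSE, and SOCS4, SOCS5, SOCS6 and CISH share their 5' border. The 240 nt CSE interval of SOCS5 lies far upstream and is not drawn.

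SOCS3 binds the shared receptor gp130 and the attached JAK kinases and so limits signalling by interleukin 6 and its relatives to STAT3. Its knockdown interval lay on the minus strand of chromosome 17 (hg19, chr17:76352858-76355264), spanned 2407 nt and had the authors' score of 280.1. That score was the median of the knockdown list, with 6845 intervals above it and 6845 below. The CSE list held no interval anywhere in the SOCS3 window, on either strand. Its nearest listed intervals on the minus strand lay 1644913 nt to the left and 341204 nt to the right of the window. Interval names in both lists carry running numbers, most of which are missing. Between the CSE intervals of either strand that flank SOCS3, 18 numbers had no listed interval. Those flanks lay 247761 nt to the left and 341204 nt to the right of the window, and the 18 numbers may fall anywhere between them. A CSE call at SOCS3 that was not listed is therefore possible, and how listed calls were chosen is not stated.

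SOCS3 was not the only wide interval missing from the CSE list. Of the knockdown intervals over 1500 and up to 3000 nt 19.0% were missing there, against 35.5% of the whole knockdown list. The knockdown list held 683 intervals whose width was within 20% of that of SOCS3, and 123 of them had no overlap in CSE. SOCS3 was the 1 such case among the 6 wide SOCS intervals of the knockdown list. Its score of 280.1 lay at percentile 32.7 of the 683, whose median was 604.8. Among the 123 that were knockdown-only it lay at percentile 65.9, above their median of 175.6. For its width, the SOCS3 interval thus had a lower score than most intervals of the knockdown list, and a higher score than most that were listed with knockdown and not in CSE.

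The width of the SOCS3 interval was close to that of a whole exon. The last exon of its reference transcript SOCS3-201 in GENCODE 29, an annotation of GRCh38, is 2406 nt long, 1 nt shorter than the interval. This exon holds the entire coding sequence of 678 nt and a 3' UTR of 1640 nt. Lengths were set side by side here, and no position was carried from one genome build to the other. The last exon contains 3 GGACT matches, shown because they are the strongest consensus matches within the exon whose length the interval has. The first lies in the coding sequence, 75 nt before the last base of the stop codon, and the others lie in the 3' UTR, 959 and 1180 nt after it. Each is printed from 5' to 3' on the transcript strand, with the match in capitals and GRCh38 coordinates.
SOCS3 coding match (GRCh38, chr17:78358481-78358501, minus strand): ggccacctGGACTcctatgag
SOCS3 first UTR match (GRCh38, chr17:78357447-78357467, minus strand): aggctgagGGACTcactggag
SOCS3 second UTR match (GRCh38, chr17:78357226-78357246, minus strand): gagaggctGGACTgctgccac
These are matches of letters in a reference transcript. The lists do not resolve which adenosine within an interval was modified.

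SOCS2, an inhibitor of growth hormone receptor signalling, had the highest score of the family in both lists. Its interval lay on the plus strand of chromosome 12, at chr12:93968279-93969982 with knockdown and chr12:93968299-93969982 in CSE (hg19). The score was 3100 with knockdown and 1487.5 in CSE. This placed SOCS2 at percentile 95.5 of the knockdown list and percentile 87.8 of the CSE list. Among intervals of like width, within 20% of its own, it lay at percentile 93.0 with knockdown and 82.2 in CSE. The scores rank intervals within a list and do not measure a change in m6A between the lists. The value of 3100 is shared by many intervals of the knockdown list, so that ranks among these are not resolved. Percentile 95.5 is the average rank of this tied group and is not read against the 87.8 in CSE.

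CISH, the founding member of the family and an inhibitor of STAT5 signalling, was also listed in both conditions. Its interval on the minus strand of chromosome 3 ran from chr3:50643932-50645573 with knockdown and from chr3:50643885-50645573 in CSE (hg19). It lay at percentile 70.1 with knockdown and 71.1 in CSE. These ranks come from lists of unlike make-up, and their difference does not measure a change in m6A. The scores were 648.3 with knockdown and 520.1 in CSE. The widths of 1642 nt with knockdown and 1689 nt in CSE were both slightly above the 1621 nt of the last exon of CISH-201. CISH also had the densest GGACT matches of the family, at 2.45 per kb of transcript.

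SOCS5 and SOCS4, close relatives with long N-terminal regions that are known to act on the EGF receptor, both held a wide interval in both lists. For SOCS5 it lay on the plus strand of chromosome 2 at chr2:46985658-46988222 with knockdown and chr2:46985658-46987791 in CSE (hg19), with a score of 2291.2 with knockdown and 984.4 in CSE. Both were high within their lists, at percentile 88.5 with knockdown and 82.8 in CSE. For SOCS4 the interval lay on the plus strand of chromosome 14 at chr14:55509670-55511639 with knockdown and chr14:55509670-55511788 in CSE, with a score of 1466.3 with knockdown and 444.2 in CSE. SOCS4 lay at percentile 83.4 with knockdown and 67.7 in CSE. As the lists are of unlike make-up, this difference does not measure a change in m6A.

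The additional SOCS5 interval of the CSE list was unlike the others. It spanned 240 nt (hg19, chr2:46926349-46926588, plus strand) and scored 71.0, at percentile 13.2 of the CSE list. The 1388 CSE intervals of like width had a median score of 190.3, and 19.7% of them had no overlap with the knockdown list. The stretch between its end and the start of the wide SOCS5 interval was 59069 nt. This equals the length of the intron of SOCS5-202 in GENCODE 29, whose first exon is 263 nt long, whereas the intron of SOCS5-201 is 59407 nt. By these lengths the spacing of the pair is that of the 2 exons of SOCS5-202. A transcript on the same strand, LINC01118, overlaps SOCS5 in that annotation, and its part in either interval was not tested.

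SOCS6, which acts on the receptor KIT and on insulin receptor substrates, was listed on the plus strand of chromosome 18. Its interval was chr18:67991779-67994358 with knockdown and chr18:67991779-67994156 in CSE (hg19), with a score of 1653.2 with knockdown and 698.1 in CSE. Its rank was percentile 85.0 with knockdown and 77.0 in CSE. Among intervals of like width it was percentile 71.5 with knockdown and 62.6 in CSE.

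**Figure D2:**
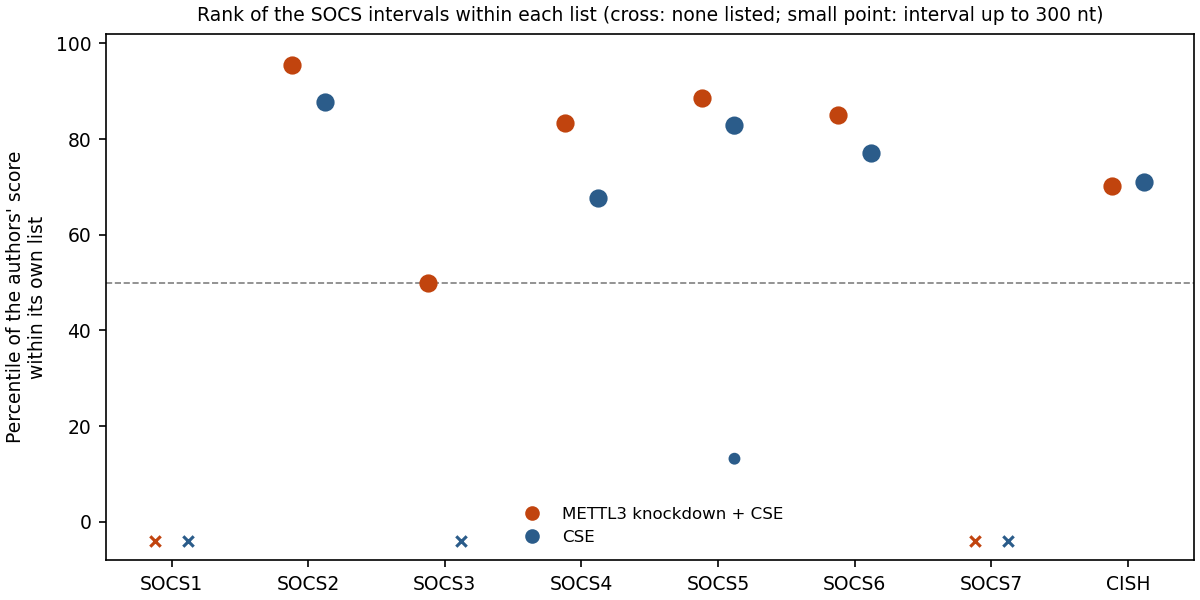
Percentile of the authors' score within its own list for each SOCS interval, with orange for METTL3 knockdown and blue for CSE. Crosses mark genes with no listed interval, the small point is the 240 nt SOCS5 interval, and the dashed line is the list median. The 5 genes listed in both conditions lie between 67.7 and 95.5, and SOCS3 lies on the dashed line.

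Across the family, 5 of 6 intervals exceeded the median score of the list with knockdown, which was 280.1, and 5 of 6 did so in CSE, where it was 223.8. Width set the SOCS intervals apart from most others. All 6 with knockdown were wider than 1500 nt, from 1642 to 2580 nt, whereas 12.8% of the whole knockdown list was. In CSE 5 of 6 were, against 15.4% of the list, and the list medians were 218 nt with knockdown and 285 nt in CSE. Wide intervals had higher scores in general, and against intervals of like width the percentiles of the 5 genes listed in both conditions ran from 59.1 to 93.0 with knockdown and from 52.7 to 82.2 in CSE. All 5 were above the middle of their width class, in each case by less than against the whole list. They were picked as listed in both conditions, whereas a width class also holds intervals listed once, with lower median scores. For SOCS2 with knockdown the class median was 446.6, and 148.2 among those without overlap in CSE. Ranks among shared intervals of like width were not computed, so this place is not read as a family trait. SOCS3 lay at percentile 32.7 of its class, and the short SOCS5 interval at 16.5.

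**Figure D3:**
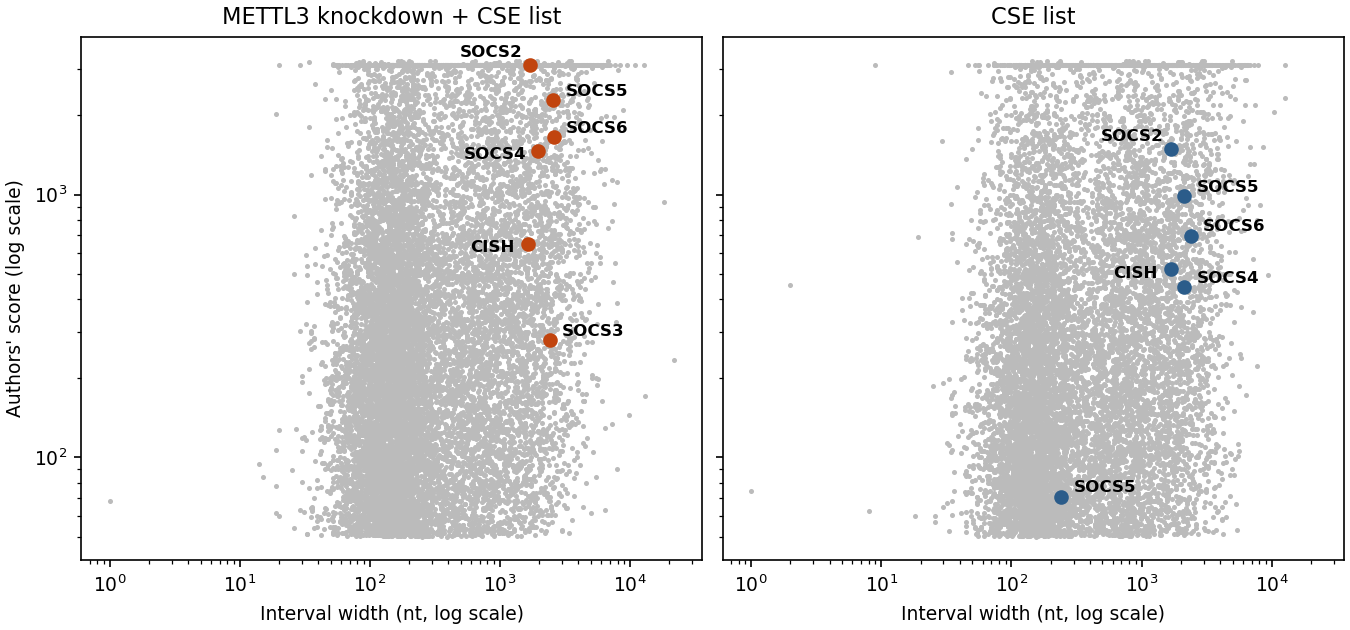
Width of each interval in nt against the authors' score, both on log scales, in the METTL3 knockdown list (left) and the CSE list (right). Grey points are all intervals and coloured points the SOCS intervals, 6 in each list. The wide SOCS intervals lie at the right edge of the main cloud, SOCS3 at 280.1 is the lowest of the 6 with knockdown, and the short SOCS5 interval at 71.0 lies near the lower edge in CSE.

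None of the 5 overlapping SOCS pairs had identical borders in both lists. Among the 8813 one-to-one overlapping pairs of the whole lists, a border differed in 17.6%, and in those with a CSE width over 1500 and up to 3000 nt it differed in 47.7% of 1019. SOCS4, SOCS5, SOCS6 and CISH shared the 5' border to the base and differed at the 3' border, a class that held 40.2% of the wide pairs. SOCS2 shared the 3' border and differed by 20 nt at the 5' border, a class that held 3.53% of the wide pairs.

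The 3' borders moved in both directions. With knockdown the interval reached 431 nt further in SOCS5 and 202 nt further in SOCS6, and it was shorter by 149 nt in SOCS4 and by 47 nt in CISH. Among the 410 wide pairs of the whole lists that shared the 5' border alone, the knockdown interval was the wider one in 64.1%, and the median difference was 136.5 nt (quartiles 43.25 and 346.5). Of the 4 SOCS pairs in this class 2 were wider with knockdown. The SOCS5 difference exceeded the upper quartile and the others lay within the quartiles. The shared stretch made up at least 83.2% of either interval in all 5 pairs.

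SOCS1 and SOCS7 had no listed interval. SOCS1, an inhibitor of JAK kinases and of interferon gamma signalling, lies on the minus strand of chromosome 16. The nearest listed intervals on that strand were the same in both lists, 324584 nt to the left of the window and 296279 nt to its right. Between the flanking intervals of either strand, 3 numbers with knockdown and 10 in CSE had no listed interval. SOCS7, which binds the adaptor NCK, lies on the plus strand of chromosome 17. Its window was 51893 nt from the nearest listed interval of that strand with knockdown and 57087 nt in CSE. Between the flanking intervals of either strand 4 numbers with knockdown and 14 in CSE were unlisted. The left flank lay 109698 nt away with knockdown and 169581 nt in CSE, so these stretches also differ. Whether these transcripts were expressed was not analysed here, so a missing interval is not a measurement of unmodified RNA.

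Gene structure varied among the members, and the 2 without intervals were unlike each other. In the reference transcripts of GENCODE 29, taken as 1 transcript per gene, all 8 members had a last exon longer than the median of 1203 nt over 19659 protein-coding genes. The 6 members with an interval consist of 2 or 3 exons, and their stop codon lies in the last one. SOCS1-202 has 1 exon of 1784 nt, which holds its stop codon. SOCS7-201 has 10 exons and its stop codon upstream of the last exon, an arrangement in contrast to 95.5% of genes. The 2 members without an interval thus departed from the others in unlike ways, and their other transcripts were not examined. The intervals of SOCS4, SOCS5 and SOCS6 were shorter than the last exon. In SOCS4 the interval had 30.1% of its length with knockdown and 32.4% in CSE, in SOCS5 55.6% with knockdown and 46.3% in CSE, and in SOCS6 45.6% with knockdown and 42.03% in CSE. In SOCS2 it had 84.2% with knockdown and 83.2% in CSE. Each of these wide intervals was longer than the coding part of the last exon, which is 1323 nt in SOCS4, 1611 nt in SOCS5, 1608 nt in SOCS6 and 458 nt in SOCS2.

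All 8 members held at least 1 GGACT match in the reference transcript, as did 88.0% of all protein-coding genes. Only the transcript strand was searched. The density exceeded the median of all genes, 0.933 per kb, in 7 of 8 members. It was 1.83 per kb in SOCS3, 1.39 in SOCS2, 1.47 in SOCS5 and 1.03 in SOCS6, and SOCS4 was below the median with 0.59. SOCS1 and SOCS7, which had no interval, had 1.12 and 1.27 matches per kb, so this density did not separate the members listed from those not listed. For the shorter GGAC, which contains GGACT matches as well, 4 of 8 members exceeded the median of 3.86 per kb, with 8.05 in SOCS3 and 1.48 in SOCS4.

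**Figure D4:**
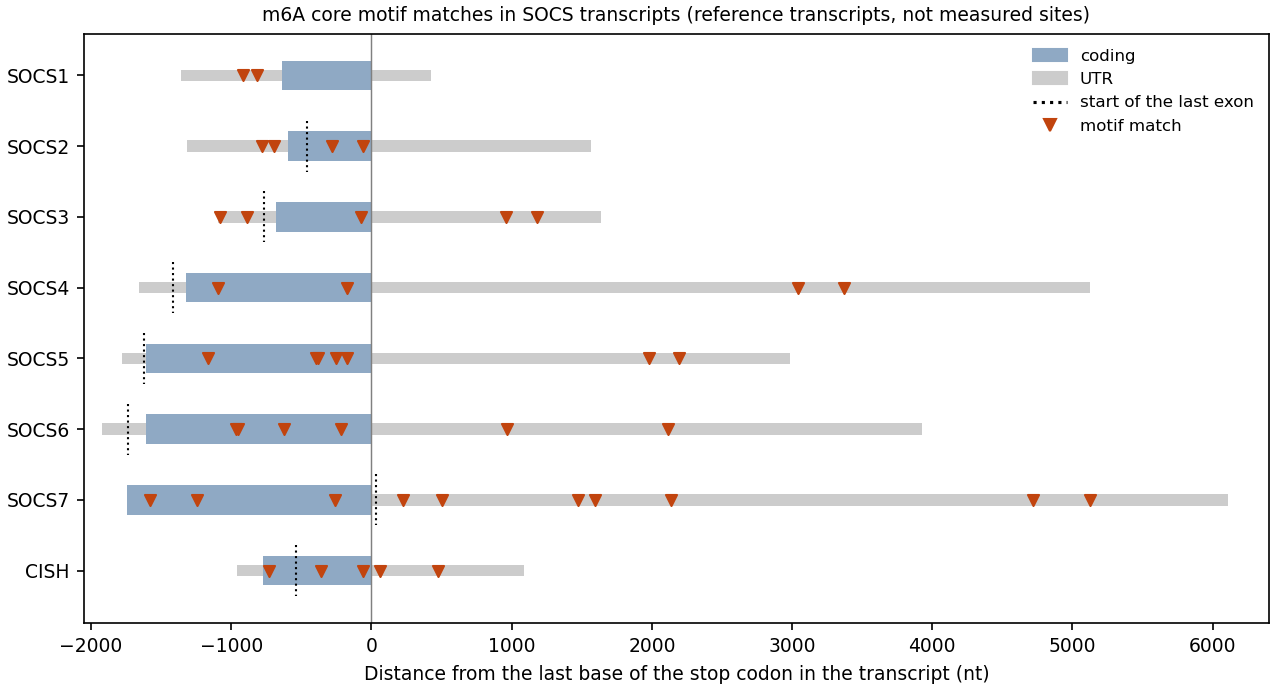
Matches of the m6A core motif (triangles) along the reference transcripts of the 8 SOCS genes, in nt from the last base of the stop codon. Blue is coding, grey is UTR and the dotted line marks where the last exon starts. In all members except SOCS1 a coding match lies within 300 nt before the end of the stop codon, as in 28.4% of all protein-coding genes. That limit was chosen after seeing these positions.

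A coding GGACT within 300 nt before the end of the stop codon was present in 7 members, SOCS1 being the exception, and in 28.4% of all protein-coding genes. The limit of 300 nt was chosen after seeing these positions. The stretch encodes related domains, the SOCS box and part of the SH2 domain, so the members are not counted as separate cases. Around the coding match nearest the stop codon, most pairs of members shared 5 or 6 identical bases in a row, of which the motif itself makes 5. Each run was anchored on the member's own match, at unlike distances from the stop codon. Its length therefore does not measure how related the domains are. The match nearest the stop codon lay 59 nt before its last base in SOCS2, 63 nt in CISH, 175 nt in SOCS4, 178 nt in SOCS5 and 219 nt in SOCS6. These are printed beside the coding match of SOCS3 above because they fall in the region where m6A is known to concentrate. SOCS7, which had such a match 257 nt before the stop codon's last base, had no interval.
SOCS2 (GRCh38, chr12:93575112-93575132, plus strand): ccatctggGGACTgcctttac
CISH (GRCh38, chr3:50607658-50607678, minus strand): gccgacgtGGACTgcctgcca
SOCS4 (GRCh38, chr14:55044181-55044201, plus strand): cttaattcGGACTttcccttt
SOCS5 (GRCh38, chr2:46759955-46759975, plus strand): actaaataGGACTttcccttt
SOCS6 (GRCh38, chr18:70326049-70326069, plus strand): tcaatcagGGACTctgaaaat
SOCS4 and SOCS5 shared a run of 14 identical bases from the match onward, GGACTttccctttt, the longest such run between any pair of members. SOCS2 and CISH shared 9, GGACTgcct, and each of them shared the first 8 of these, GGACTgcc, with SOCS7, which had no interval in either list.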

How the data were processed

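The submitters' processing notes name HISAT2 2.0.4 and the build hg19. The deposited intervals carry names that begin with MACS, a peak caller. Its settings, and how replicates entered the lists, are not stated. Each deposited list holds chromosome, start, end, name, the authors' score and strand. The scale of the score is not stated, so it was ranked within its own list. Starts are given counting from 1. With Python 3.11.15, pandas 2.3.3 and scipy 1.17.1, intervals of both lists were matched to 8 windows on the strand of the gene, and an overlap of at least 1 bp on the same strand counted as listed in both conditions. The overlap code was tested on simulated intervals. Read depths were not used here. Reference transcripts came from GENCODE 29, choosing the best APPRIS level and then the longest, and served for lengths and motif matches. Members, windows and lists were chosen with earlier results of these data known. By the rule for named items, all members with every interval are given. JAK, STAT and receptor genes were not analysed here, since hg19 positions for them were not used. Alternatives were other overlap rules, the upper 50% of each list by score, either strand, and windows widened by 5 kb.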

Additional observations from a re-analysis of the deposited data

How the results depend on the processing

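Interval counts and covered lengths were held to within 1.5 times the reported value, and shares of all intervals to the Wilson 95% interval of the reported share. Of 42 values under alternatives, 33 stayed within these limits and 9 moved. Some of the 33 could not move, so their number is not a measure of stability. The closest interval outside a window on its strand lay 51893 nt away, so widening by 5 kb could add none. Limiting the knockdown list, as described below, leaves the CSE intervals and their covered length as they are. When identical borders were required, 0 SOCS intervals were common to both lists, and 6 were knockdown-only and 6 CSE-only, because each overlapping pair differed at a border. The shares of all intervals were then 47.0% knockdown-only and 34.2% CSE-only. A reciprocal overlap of 50% left the SOCS counts as they were and gave 20.8% CSE-only intervals in the whole list. With the lower scores removed, leaving the upper 50% of both lists, 0 SOCS intervals were CSE-only, since the short SOCS5 interval scored 71.0. SOCS3 remained knockdown-only there as the lowest interval kept, and any stricter minimum would remove it. Limiting the knockdown list to its highest scores at the length of the CSE list, an alternative chosen after seeing the data, left 26.7% of either list without overlap and the SOCS counts unchanged. Taking intervals of either strand, or widening the windows by 5 kb, changed no SOCS count. No paired analysis was possible because each condition had 1 list. With 1 list per condition and unknown read depth, a missing interval may be a call that fell below the authors' selection.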
